A study of Mus musculus with 2 samples.

Results

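Annexins and S100 proteins, the calcium-binding families that couple calcium signals to membranes and to partner proteins, were followed in cultured mouse fetal lung epithelium. The members were taken by name: every Affymetrix probe set annotated to a single gene whose symbol is an annexin (Anxa followed by a number), an S100 gene (S100a followed by a number, S100b, S100g or S100z) or S100pbp. This gave 43 probe sets of 34945 that named 1 gene, for 25 genes of 18193. The members were 11 annexins, 13 S100 genes and S100pbp, a nuclear protein known in human cells for binding an S100 protein and not itself one. No signal enters the naming rule, but the pair of families was selected on the CHIR+ over CHIR- signal ratios of these same arrays, so the ratios below are a description and none was tested. A further 2 probe sets list a family symbol together with other genes and were not analysed here.

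The arrays compared epithelium kept in CHIR99021 (CHIR+) with epithelium from which it had been withdrawn (CHIR-), 1 array each. CHIR99021 inhibits glycogen synthase kinase 3 and so stabilises beta-catenin, the effector of canonical Wnt signalling. Epithelium was isolated from ICR mice, an outbred stock, at embryonic day 11 and grown in Matrigel with FGF10 and CHIR99021 for 4 days, then fragmented and grown in FGF10 medium with or without the inhibitor for 2 days. Both cultures had therefore been exposed to CHIR99021 and to FGF10, and the labels do not say how many embryos or cultures went into each RNA. With 1 array per condition there is no spread between cultures, so a difference below is a difference between 2 arrays.

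As background, annexins are cytosolic proteins that bind acidic phospholipids when calcium rises, and they organise membrane repair, exocytosis and the cortical actin skeleton. S100 proteins are small EF-hand proteins, mostly dimers, that change shape on binding calcium and then bind targets, several of which are annexins. Most S100 genes of the mouse lie in a group on chromosome 3, within and beside the epidermal differentiation complex, whereas annexin genes are scattered over many chromosomes. In the mature lung several members are abundant in the flat alveolar type 1 cells and in secretory and barrier epithelium.

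Signals are MAS5 intensities on a linear scale. A signal counts as measured when it exceeds its array's background floor, the 95th percentile over 80 probe sets of odorant and pheromone receptors, which was 12.7 on the CHIR+ array and 19.2 on the CHIR- array. Ratios are CHIR+ over CHIR-, and the median log2 ratio of the 12917 measured genes was -0.42, with 74.1% of them dimmer on the CHIR+ array. That array also had the larger 3' bias, with a 3' to 5' signal ratio of beta-actin of 3.18 in CHIR+ against 1.29 in CHIR-, and of Gapdh of 1.62 in CHIR+ against 0.737 in CHIR-. The part of this bias in the results below was not tested. All 10 markers listed for lung epithelium were measured, 3 of them (30%) at least 2-fold lower and 0 higher. Over all measured genes 18.4% were lower and 1.9% higher. After loess normalization, which removes the trend of the ratio with signal, 3 markers were lower and 0 higher, against 7.29% and 6.02% of all genes. After median centring 1 marker was lower and 1 higher, against 7.44% and 5.91% of all genes. The summed signal of the markers was 33226 in CHIR+ and 44049.7 in CHIR-. Epcam, an epithelial adhesion molecule, was at 3743 in CHIR+ and 3846 in CHIR-, and its other probe set had a log2 ratio of -0.41. Nkx2-1, the lung identity factor, was at 5.84 in CHIR+, below the floor, and 52.0 in CHIR-, with no other probe set above both floors. Sftpc, a surfactant protein gene, was at 8500 in CHIR+ and 8808 in CHIR-, but its other probe set had a log2 ratio of -0.92. The remaining log2 ratios were -1.29 for Krt8, -1.25 for Krt18, -0.84 for Cdh1, -0.50 for Foxa1 and -0.49 for Foxa2. Cldn6 was at 0.17 and Id2 at 0.58, with the other Id2 probe sets at -0.11 and 0.62.

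Nearly every measured member of both families was dimmer with CHIR99021. Of 8 measured annexin genes 7 were at least 2-fold lower and 0 higher, and of 9 measured S100 genes 7 were at least 2-fold lower and 0 higher. Over all measured genes 18.4% were at least 2-fold lower and 1.9% at least 2-fold higher. At a 3-fold threshold the counts were 5 annexins and 6 S100 genes lower and 0 higher, against 6.29% of all genes lower and 0.627% higher. The median log2 ratio was -1.72 for the annexins and -2.15 for the S100 genes, against -0.42 for all genes. After loess normalization, which removes the trend of the ratio with signal, 7 annexins and 6 S100 genes were at least 2-fold lower and 0 higher, against 7.29% of all genes lower and 6.02% higher. Since the RNA is from bulk culture, fewer cells of a type and less RNA per cell cannot be told apart. Of the other members, Anxa9, Anxa10, Anxa13, S100a3, S100a8, S100a9 and S100b were below the floor on both arrays, and nothing is said of their direction.

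**Figure D1:**
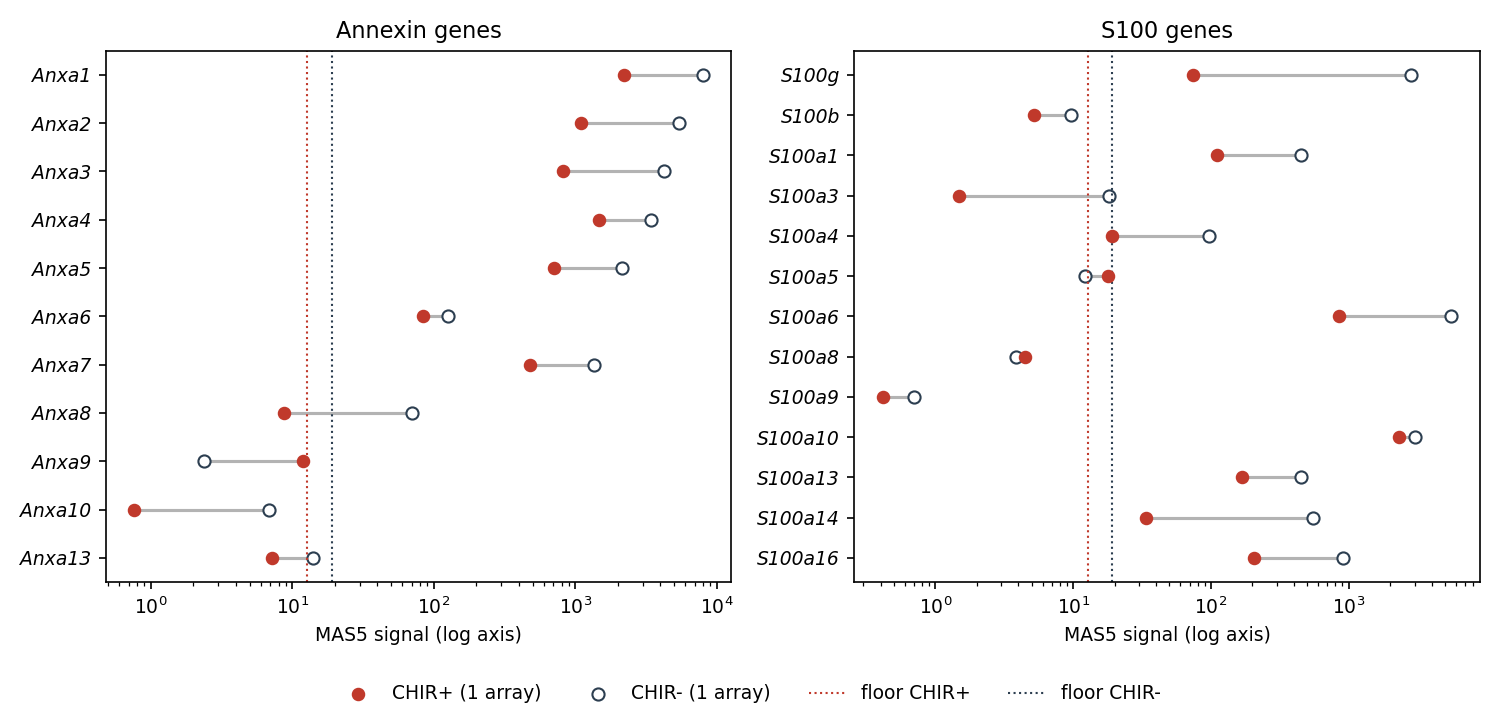
MAS5 signal on a log axis for each annexin gene (left) and S100 gene (right), with filled points for the CHIR+ array, open points for the CHIR- array and dotted lines for the background floors of 12.7 and 19.2. The filled point lies left of the open one for all 8 measured annexins, and among measured genes S100g shows the widest gap, at 73.9 in CHIR+ against 2819.95 in CHIR-.

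Promoter windows are shown for 6 members that were at least 2-fold lower, to set the letters around their start sites beside their signals. They come from RefSeq (GRCm38.p6) and run from 250 bases before to 50 bases after an annotated start, and 20 of the 25 members had an entry, with 28 windows in all. Both strands were searched for CTTTGAT and CTTTGAA, core letters bound by the TCF and LEF partners of beta-catenin, for TGANTCA, bound by AP-1, for GGGCGG, the GC box, and for TATAAA, the TATA box. Capitals mark matches, and no matches of different motifs overlapped in a member's window.
S100g, chrX:162964550-162964849, minus strand: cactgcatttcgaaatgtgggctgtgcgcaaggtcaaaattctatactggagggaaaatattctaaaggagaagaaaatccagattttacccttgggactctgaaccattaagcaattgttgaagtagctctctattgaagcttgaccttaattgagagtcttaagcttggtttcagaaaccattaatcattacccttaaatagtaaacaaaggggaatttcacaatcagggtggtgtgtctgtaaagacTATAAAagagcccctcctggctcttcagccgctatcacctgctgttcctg
S100a4, chr3:90603520-90603819, plus strand: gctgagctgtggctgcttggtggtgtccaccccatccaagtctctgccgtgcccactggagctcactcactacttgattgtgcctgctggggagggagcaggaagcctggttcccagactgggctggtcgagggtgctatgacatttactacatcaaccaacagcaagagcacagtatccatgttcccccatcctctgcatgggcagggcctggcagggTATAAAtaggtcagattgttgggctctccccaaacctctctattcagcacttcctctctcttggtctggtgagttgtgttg
S100a13, chr3:90514185-90514484, plus strand: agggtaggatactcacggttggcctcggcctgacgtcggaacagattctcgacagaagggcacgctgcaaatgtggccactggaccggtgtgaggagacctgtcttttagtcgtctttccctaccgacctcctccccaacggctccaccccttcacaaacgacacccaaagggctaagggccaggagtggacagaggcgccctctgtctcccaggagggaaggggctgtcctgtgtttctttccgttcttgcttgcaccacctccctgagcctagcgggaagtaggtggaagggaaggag
Anxa1, chr19:20390622-20390921, minus strand: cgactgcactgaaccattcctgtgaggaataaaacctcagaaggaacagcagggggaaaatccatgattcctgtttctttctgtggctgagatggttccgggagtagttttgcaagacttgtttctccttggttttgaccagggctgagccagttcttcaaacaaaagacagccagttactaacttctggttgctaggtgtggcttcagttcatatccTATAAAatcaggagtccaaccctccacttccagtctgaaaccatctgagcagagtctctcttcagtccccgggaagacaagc
Anxa2, chr9:69453433-69453732, plus strand: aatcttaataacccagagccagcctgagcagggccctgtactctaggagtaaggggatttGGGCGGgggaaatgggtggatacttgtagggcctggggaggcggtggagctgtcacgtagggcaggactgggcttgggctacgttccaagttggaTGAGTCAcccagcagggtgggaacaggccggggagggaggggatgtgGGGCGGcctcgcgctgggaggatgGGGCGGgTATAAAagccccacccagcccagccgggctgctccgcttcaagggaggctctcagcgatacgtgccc
Anxa7, chr14:20480084-20480383, minus strand: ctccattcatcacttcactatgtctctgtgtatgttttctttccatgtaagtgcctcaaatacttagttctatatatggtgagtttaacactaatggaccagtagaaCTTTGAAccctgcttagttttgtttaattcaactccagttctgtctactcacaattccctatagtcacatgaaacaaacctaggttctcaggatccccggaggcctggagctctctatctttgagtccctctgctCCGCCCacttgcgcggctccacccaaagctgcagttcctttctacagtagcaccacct

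Either TCF/LEF core was found in 3 of 26 annexin and S100 windows (11.5%), against 8.65% of all 32851 windows in the table. They belong to Anxa7, shown above, to Anxa4 and to S100a3, which was not measured, and S100g and S100a4 have none in the windows shown. TATAAA was present in 3 of 11 annexin windows and 5 of 15 S100 windows, against 13.6% of all windows. Of these windows, those of Anxa10, S100a3, S100a8 and S100a9 belong to genes below the floor on both arrays. Counted from the annotated start, TATAAA begins at -31 in the S100a4 window, at -32 in that of Anxa1 and at -17 in that of Anxa2. In the S100g window it begins at the start itself. The AP-1 letters were in 2 of 11 annexin and 1 of 15 S100 windows, against 7.81% of all, and the GC box in 4 of 11 and 3 of 15, against 35.7% of all. Windows of 1 gene can overlap, a match is a description of the letters only, and the absence of one says nothing of regulation from elsewhere.

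Among the annexins measured on both arrays, Anxa1, Anxa2 and Anxa3 had the lowest ratios, each more than 3-fold lower with CHIR99021. Anxa1, an anti-inflammatory annexin that binds formyl peptide receptors and cytosolic phospholipase A2, had 2193 in CHIR+ and 7969.5 in CHIR-, 3.63-fold lower. Anxa2, which joins membranes to actin and forms a complex with S100a10, had 1098 in CHIR+ and 5396 in CHIR-, 4.92-fold lower. For Anxa3, a phospholipid-binding annexin, the signals were 814 in CHIR+ and 4221 in CHIR-, 5.19-fold lower. Of these 3, the ratio closest to 0 under any scaling was that of Anxa1 after median centring, at -1.38 on the log2 scale.

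Anxa8, known from stratified epithelia, was measured without the inhibitor only. Its signals were 8.80 in CHIR+, below the floor, and 69.8 in CHIR-, at least 5.49-fold lower, and its other probe set had 1.06 in CHIR+ and 42.9 in CHIR-. Thus both probe sets of this gene were above the floor on the CHIR- array alone.

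Smaller differences were seen for Anxa4, Anxa5 and Anxa7. Anxa5, which binds exposed phosphatidylserine, had 707 in CHIR+ and 2127 in CHIR-, 3.01-fold lower. Anxa7, or synexin, which promotes fusion of secretory granules, had 482 in CHIR+ and 1349 in CHIR-, 2.80-fold lower, and its other probe sets had log2 ratios of -1.24 and -1.32. Anxa4, an annexin enriched in secretory and absorptive epithelia, had 1477 in CHIR+ and 3411 in CHIR-, 2.31-fold lower. Its 2 other probe sets had lower ratios, at 301 in CHIR+ against 1567 in CHIR- and at 170.1 in CHIR+ against 621 in CHIR-. After quantile normalization Anxa4 had a log2 ratio of -0.94 and after median centring -0.73, inside the 2-fold limit.

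Anxa6, an annexin with an extended core that acts at endosomal membranes, was the exception within the family. It had 84.4 in CHIR+ and 126 in CHIR-, a log2 ratio of -0.57, close to the -0.42 of the median gene. Its 3 other probe sets ranged from -0.73 to 0.04, and after loess its ratio was -0.02.

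**Figure D2:**
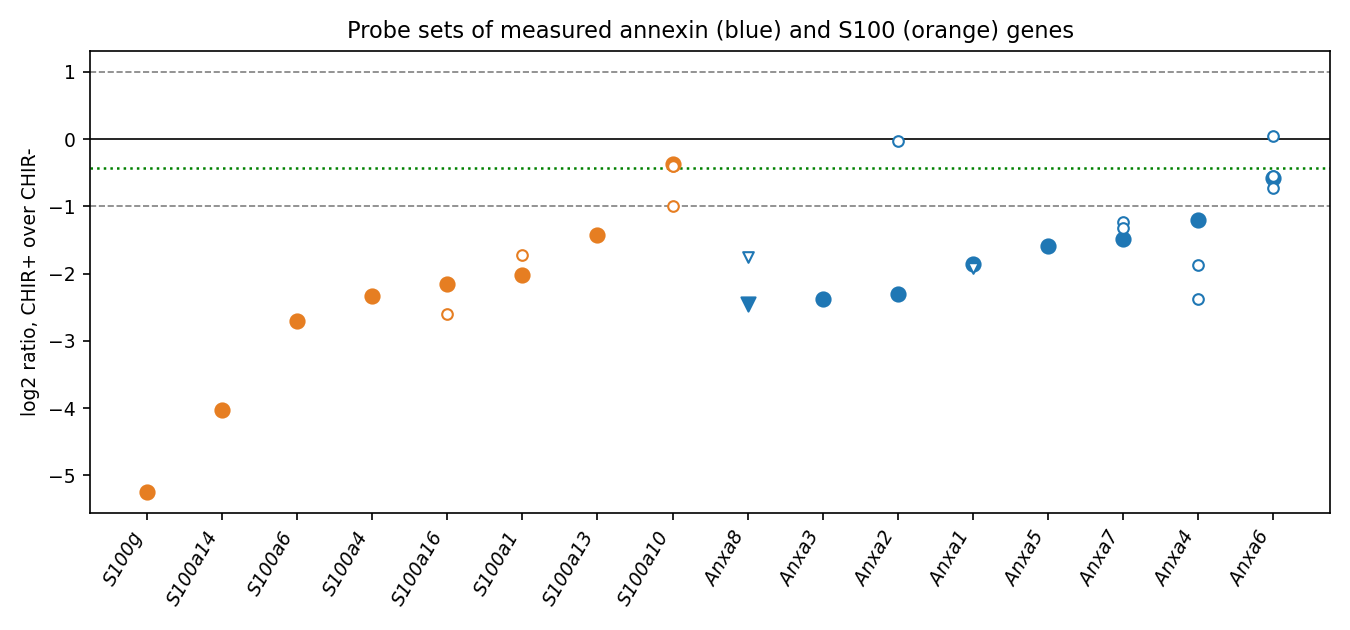
Log2 ratio, CHIR+ over CHIR-, of every measured probe set of each S100 gene (orange) and annexin gene (blue); filled symbols represent the gene, open ones are its other probe sets, triangles are bounds, dashed lines mark 2-fold and the dotted line the median gene at -0.42. S100a5 is left out because it was above the floor on the CHIR+ array alone. A single probe set of Anxa2 lies near 0 (-0.03), and the one of Anxa6 at 0.04 is the only symbol above 0.

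Probe sets allow a second reading of some members. Of the 32 family probe sets measured (S100pbp included), 22 were at least 2-fold lower and 0 higher, whereas among all 23972 measured probe sets of single genes 24.2% were at least 2-fold lower. The widest disagreement was in Anxa2, where a dim probe set of the cross-hybridizing design had 62.9 in CHIR+ and 64.3 in CHIR-, against the 4.92-fold difference of the bright one. Another probe set of the gene was below the floor on both arrays. Taking the median over its measured probe sets gave Anxa2 a log2 ratio of -1.17 in place of -2.30. Anxa4 differed too, with its brightest probe set at -1.21 and the others at -2.38 and -1.87, each past 2-fold lower. For comparison, the log2 ratios of probe sets scattered around the mean of their gene with a pooled SD of 0.557 over 5335 genes. A difference between 2 probe sets scatters more widely than that.

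In the S100 family the largest difference was that of S100g, also called calbindin-D9k, a cytosolic calcium buffer of absorptive epithelium. It had 73.9 in CHIR+ and 2819.95 in CHIR-, 38.1-fold lower, which ranked 10 from the lowest of 12917 measured genes. S100a14, an S100 protein of epithelia, followed with 33.7 in CHIR+ and 549 in CHIR-, 16.3-fold lower and ranked 46. Each of the 2 genes was read by 1 probe set only, so no second reading exists. Over the other 4 scalings the ratio closest to 0 was -4.78 for S100g, after median centring, and -3.45 for S100a14, after quantile normalization.

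S100a6, or calcyclin, which binds the adaptor Cacybp and is counted among alveolar type 1 markers, had 846 in CHIR+ and 5548 in CHIR-, 6.56-fold lower. S100a4, known from motile, mesenchymal and myeloid cells as well as some epithelia, had 19.2 in CHIR+, just above the floor, and 97.3 in CHIR-, 5.06-fold lower. S100a4 was thus near background on the CHIR+ array, and its ratio was -1.75 on the log2 scale after loess against -2.34 as deposited.

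S100a16, a widely expressed S100 protein, had 206 in CHIR+ and 913 in CHIR-, 4.44-fold lower, with its other probe set at 112 in CHIR+ and 677 in CHIR-. S100a1, a regulator of calcium cycling best known from muscle, had 111 in CHIR+ and 449 in CHIR-, 4.05-fold lower, with its other probe set at 51.4 in CHIR+ and 171 in CHIR-. Its neighbour S100a13, which takes part in the export of FGF1, had 168 in CHIR+ and 449.8 in CHIR-, 2.68-fold lower. The annotated starts of S100a1 and S100a13 used in the RefSeq windows lie 105 bases apart on opposite strands, and their windows share 204 bases, part of the S100a13 sequence printed above. Both genes of this divergent pair were lower with CHIR99021, S100a1 by 0.59 more on the log2 scale. The difference, S100a1 minus S100a13, was -0.45 with the median over probe sets and -0.31 without probe sets ending in _x_at or _s_at. For S100a13 the log2 ratio was -0.95 after loess and -0.88 after quantile normalization, inside the 2-fold limit.

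S100a10 differed little between the arrays. This member, called p11, does not bind calcium and holds Anxa2 in a heterotetramer at the membrane, where it also binds plasminogen. It had 2312 in CHIR+ and 3000.3 in CHIR-, 1.30-fold lower, close to the median gene, and its other probe sets had 1995 in CHIR+ against 2637 in CHIR- and 51.8 in CHIR+ against 103 in CHIR-. The log2 ratio of Anxa2 was thus 1.92 below that of S100a10, its partner, and this difference was -1.91 after loess and -0.76 with the median over probe sets. S100pbp, the S100-binding nuclear protein, had 227 in CHIR+ and 295 in CHIR-, a log2 ratio of -0.38.

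S100a5 was the sole family member with the higher signal in CHIR+ among those measured, at 17.9 in CHIR+ and 12.1 in CHIR-. The first value is above the CHIR+ floor of 12.7 and the second below the CHIR- floor of 19.2, so no fold is given. It entered the S100 median at the ratio of the 2 floored values, -0.10. S100a8 and S100a9, the calprotectin subunits of neutrophils, were below the floor throughout, at 4.49 and 0.415 in CHIR+ and 3.88 and 0.694 in CHIR-.

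**Figure D3:**
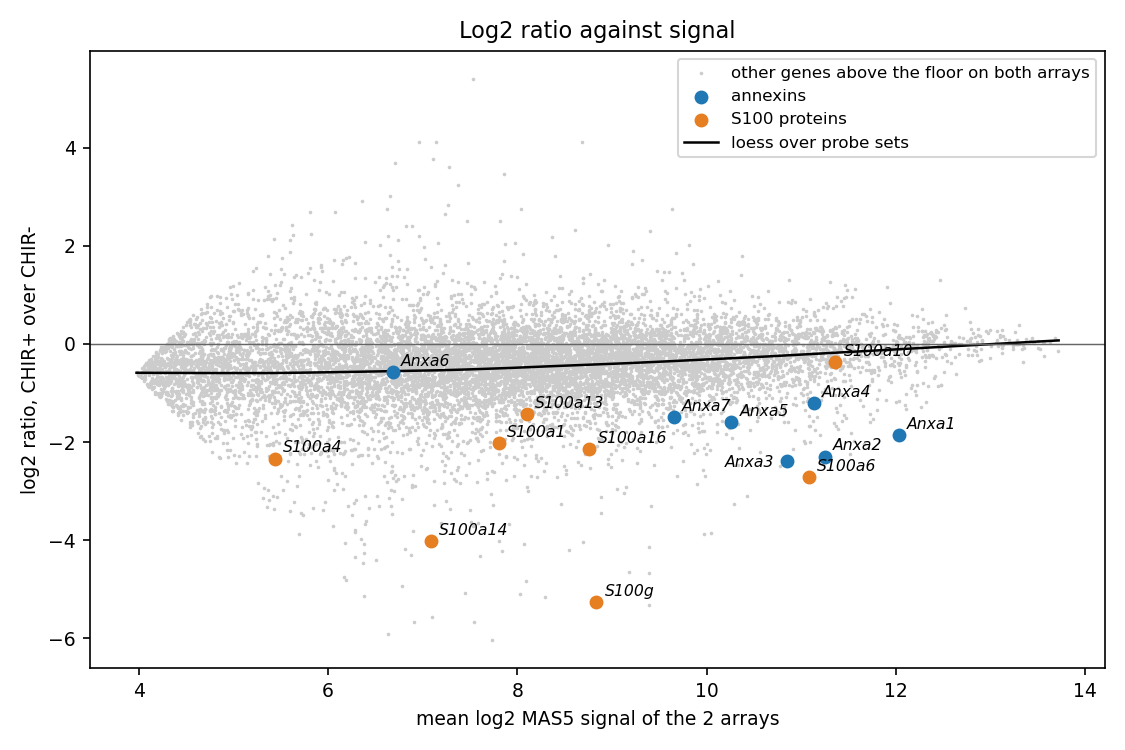
Log2 ratio, CHIR+ over CHIR-, against the mean log2 signal for genes above the floor on both arrays (grey), with annexins in blue and S100 genes in orange and the loess curve in black. Anxa6 and S100a10 lie near the curve, while S100g (-5.25) and S100a14 (-4.03) lie far below it at intermediate signal.

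Scaling moved each family's count by at most 1 gene. After median centring 6 annexins and 6 S100 genes were at least 2-fold lower and 0 higher, against 7.44% of all genes lower and 5.91% higher, and after quantile normalization the counts were again 6 and 6. S100g remained the lowest and S100a14 the next under all 5 scalings. S100a10 was at 0.10 after median centring but at -0.20 after loess, and Anxa6 was at 0.07 after quantile normalization, so neither gene has a direction that holds across scalings.

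**Figure D4:**
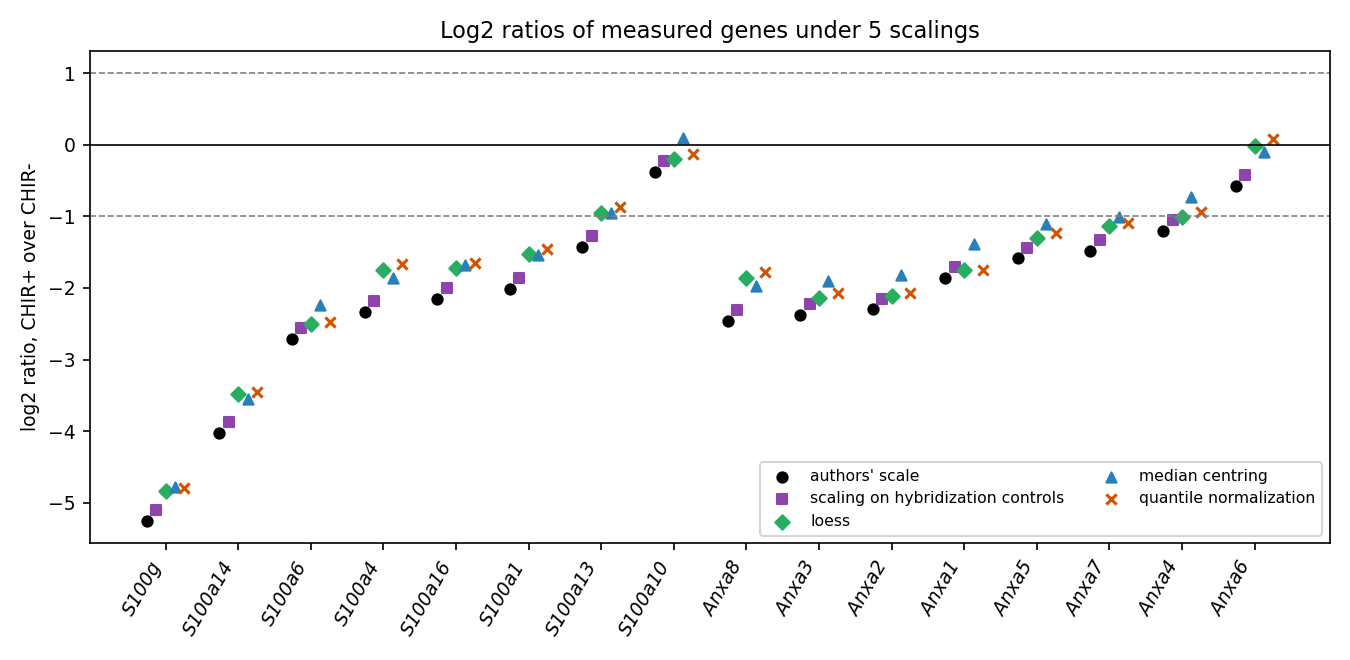
Log2 ratios, CHIR+ over CHIR-, of the measured S100 genes and annexins other than S100a5 under 5 scalings, as deposited, on the hybridization controls, after loess, after median centring and after quantile normalization; dashed lines mark 2-fold. S100a13 and Anxa4 cross the lower dashed line between scalings, at -1.42 and -1.21 as deposited.

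On chromosome 3, 70 protein-coding genes lie from S100a1 to S100a10 in the RefSeq table, 15 S100 genes and 55 others, which are mostly cornified envelope genes of the epidermal differentiation complex. Of the 8 measured S100 genes there 6 were at least 2-fold lower, and of the 17 other measured genes 5 (29.4%) were lower and 0 higher, against 18.4% of all measured genes lower and 1.9% higher. Sprr1a, a small proline-rich cross-linked protein of barrier epithelium, had 21.0 in CHIR+ and 290.2 in CHIR-, 13.8-fold lower. Ivl, involucrin, had 12.0 in CHIR+, below the floor, and 75.6 in CHIR-, at least 5.94-fold lower, and Lce1i, a late cornified envelope gene, had 6.85 in CHIR+, also below the floor, and 48.0 in CHIR-, at least 3.77-fold lower. Tchh, trichohyalin, an S100-fused protein, was 2.44-fold lower, at 47.3 in CHIR+ and 115 in CHIR-. Of the 36 other genes with a probe set 19 were below the floor on both arrays. Of the 17 ratios 10 rest on a signal raised to the floor, and 4 of these genes were above the floor in CHIR+ alone, so no median is given. After loess 3 of the 17 were lower and 1, Lor (loricrin, named after its value was seen), was higher, against 7.29% of all genes lower and 6.02% higher. S100g lies outside this region, on chromosome X, and had the lowest ratio of the family.

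**Figure D5:**
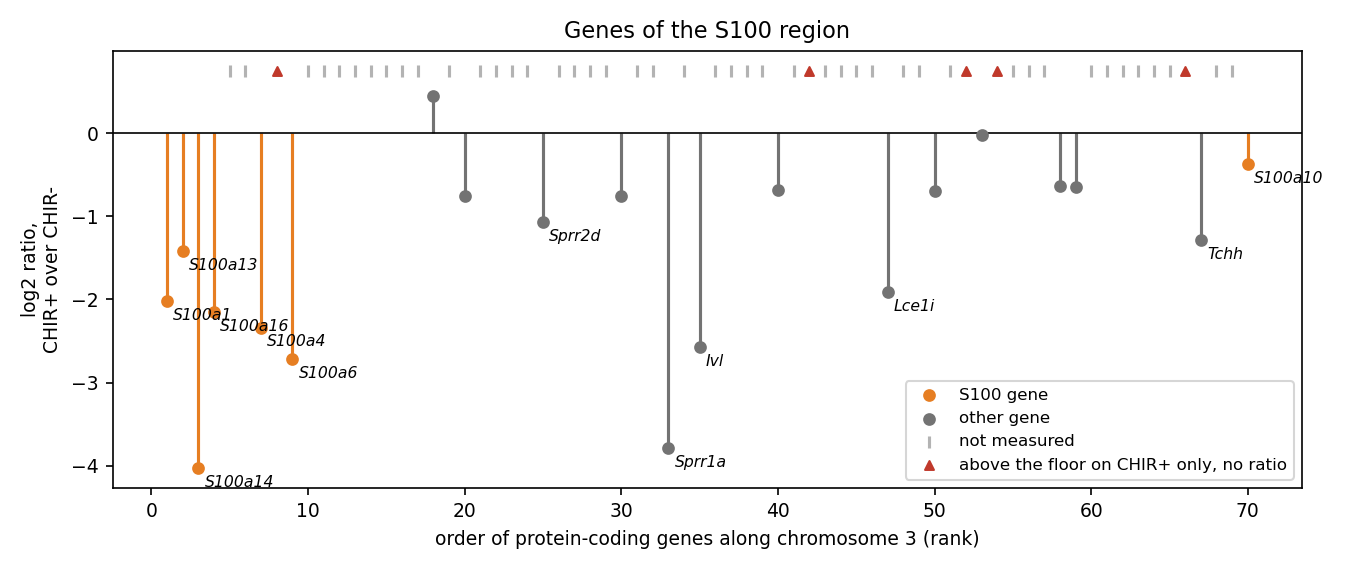
Log2 ratio, CHIR+ over CHIR-, of measured S100 genes (orange) and other genes (grey) in their order along chromosome 3, with ticks for genes not measured and triangles for genes above the floor on the CHIR+ array alone, for which no ratio is drawn. Of the 7 S100 genes with a ratio, the 6 at the left end range from -4.03 to -1.42, while S100a10 at the right end is at -0.38.

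Proteins that annexins and S100 proteins bind or act with were lower in part. Of 28 measured partner genes 13 (46.4%) were at least 2-fold lower and 1 higher, against 18.4% and 1.9% of all measured genes, with a median log2 ratio of -0.79. After loess 9 were lower and 1 higher, against 7.29% and 6.02% of all genes, and after median centring 8 and 2, against 7.44% and 5.91%. Myof, myoferlin, a membrane repair protein, had 51.3 in CHIR+ and 672 in CHIR-, 13.1-fold lower. Tgm1, a transglutaminase that cross-links annexin and S100 proteins in barrier epithelium, had 18.4 in CHIR+, just above the floor, and 239 in CHIR-. Its log2 ratio was -3.70. These were the lowest ratios of the list.

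Plaur, the urokinase receptor, had 50.1 in CHIR+ and 461 in CHIR-, 9.20-fold lower. Plat, tissue plasminogen activator, had 83.9 in CHIR+ and 32.7 in CHIR-, 2.57-fold higher, the single partner gene past 2-fold in that direction. Plg, plasminogen, and Plau, urokinase, listed with them, were below the floor on both arrays. Ahnak2, a giant scaffold protein, had 14.7 in CHIR+, just above the floor, and 116 in CHIR-, 7.87-fold lower. Its relative Ahnak, the scaffold bound by S100a10 and Anxa2 and named here after its value was seen, had 768 in CHIR+ and 2597 in CHIR-, 3.38-fold lower, with further probe sets at -2.40 and -1.91. Ager, the receptor for S100 ligands that is abundant in alveolar type 1 cells, was also named after its value was seen: it had 3393 in CHIR+ and 7749.9 in CHIR-, 2.28-fold lower. Cacybp, the S100a6-binding protein, likewise named afterwards, had 2128 in CHIR+ and 1653 in CHIR-, so it did not share the direction of S100a6.

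Other EF-hand proteins use the same calcium-binding fold as S100 proteins. Of 42 measured genes 13 (31.0%) were at least 2-fold lower and 1 higher, against 18.4% and 1.9% of all genes, with a median log2 ratio of -0.67. After loess 6 were lower and 1 higher, against 7.29% and 6.02% of all genes, with a median of -0.17. Pls3, an actin-bundling plastin, had 916 in CHIR+ and 4065 in CHIR-, 4.44-fold lower. Capn2, the catalytic subunit of a calpain protease, had 382 in CHIR+ and 1626 in CHIR-, 4.26-fold lower. Plcd1, a phospholipase C, was at 6.51 in CHIR+, below the floor, and 59.3 in CHIR-, at least 4.66-fold lower. Capn5, another calpain, was 9.04-fold lower by one probe set, at 13.8 in CHIR+, just above the floor, and 125 in CHIR-. Its other probe set had a log2 ratio of -0.19. Rcn3, a reticulocalbin of the secretory pathway, was the higher one, with 77.2 in CHIR+ and 22.1 in CHIR-, just above the floor, 3.49-fold.

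Some members also mark other cell types that a culture of isolated epithelium could contain. Of 13 mesenchymal markers 7 were measured, 0 of them past 2-fold, against 18.4% of all measured genes lower and 1.9% higher. After loess, and also after median centring, 1 of the 7 was higher and 0 lower. The summed signal over all 13 was 654 in CHIR+ and 742 in CHIR-. Of 8 macrophage markers 4 were measured, with a sum over all 8 of 152 in CHIR+ and 220 in CHIR-. Lyz2, lysozyme, was 2.14-fold lower at 35.0 in CHIR+ and 74.9 in CHIR-. Its log2 ratio was -0.51 after loess and -0.62 after median centring, inside the 2-fold limit. Csf1r had 54.4 in CHIR+ and 48.4 in CHIR-, but its other probe set had a log2 ratio of -0.40. Adgre1 and Cd68 had log2 ratios of -0.76 and -0.54. The pan-leukocyte gene Ptprc was below the floor on both arrays. Neutrophil markers (1 of 7 measured) summed to 45.4 in CHIR+ and 68.0 in CHIR-, endothelial ones (1 of 6) to 46.1 in CHIR+ and 65.5 in CHIR-, and none of the 4 red cell genes with a probe set was measured, with sums of 18.7 in CHIR+ and 24.4 in CHIR-. Of 5 mesothelial markers 3 were measured, 2 of them at least 2-fold lower and 0 higher, against 18.4% and 1.9% of all measured genes. The other measured marker, Lrrn4, was above the floor on the CHIR+ array alone. The summed signal over all 5 was 301 in CHIR+ and 4513 in CHIR-, most of it from Krt19, a keratin that epithelia also make, at 278 in CHIR+ and 4030.2 in CHIR-, 14.5-fold lower. Msln, mesothelin, had 4.84 in CHIR+ and 471 in CHIR-, at least 37.0-fold lower. Lrrn4 had 14.8 in CHIR+, just above the floor, and 6.36 in CHIR-, below it, so no fold or direction is given for it. Wt1 and Upk3b, which define mesothelium, were below the floor on both arrays. The part of such cells in the annexin and S100 differences was not tested.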

How the data were processed

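Gene expression was measured on Affymetrix 3' arrays from 100 ng of total RNA, per the labels' protocols. Per the submitters' processing notes, the deposited intensity values came from MAS5, and they are linear; its version and scaling target are not given in the sources used here. MAS5 corrects with mismatch probes, so dim signals scatter. Their 2% trimmed means were 151 in CHIR+ and 204 in CHIR-, so the arrays do not share a trimmed mean, and no detection calls were used. There were 2 arrays, 1 per condition, so precision is limited by their number and no test was made.

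Probe sets were named from the platform annotation; all 25 member symbols were current in the RefSeq table (GRCm38.p6). Where several probe sets named a gene alone, the one brightest on average (log2) stood for it. Signals below an array's floor were raised to it, so a ratio with CHIR+ below the floor is a bound ("at least"), and a gene above the floor in CHIR+ alone enters at its ratio to the CHIR- floor, which can be below 0 although its own signal was higher in CHIR+. Genes past 2-fold are called higher or lower. Alternatives were median centring, quantile normalization, loess (span 0.4), scaling on 18 hybridization control probe sets, other floors, an offset of 16, other probe set rules and thresholds of 1.5-fold and 3-fold. The procedure was run on simulated data with a constant shift between arrays and changes in bright genes only. That run therefore says nothing of dim signals or of 3' bias. Members and lists were chosen with earlier results of these data known. Named are all members and, from each further list and from the S100 region, at most 4 higher and 4 lower genes past 2-fold; others are marked, and markers that define a cell type are named as such. Software was scipy 1.17.1, matplotlib 3.10.9, statsmodels 0.14.6 (loess), pandas 2.3.3, numpy 2.4.6 and Python 3.11.15.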

Additional observations from a re-analysis of the deposited data

How the results depend on the processing

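The counts of annexin and S100 genes at least 2-fold lower with CHIR99021 ran from 5 to 7 and from 6 to 7 over 11 alternatives, thresholds of 1.5-fold and 3-fold included, with 0 higher in each, and their median log2 ratios from -1.73 to -1.25 and from -2.34 to -1.65. The partner list was less steady. Against 13 lower and 1 higher as reported, it had 8 lower and 2 higher after median centring, 2 higher after quantile normalization, 2 higher without a floor, and 7 lower and 0 higher at a 3-fold threshold. Centring adds a constant to every ratio, so the lower calls it lost were those nearest 2-fold. Of the 18 measured members, S100pbp included, 12 to 14 stayed at least 2-fold lower under every scaling, floor and probe set rule, and none of the calls changed sign. Ratios of single members moved in 14 cases by more than 0.557, the SD of probe sets around the mean of their gene. Among these were Anxa2 and Anxa4 with the median over probe sets (-1.17 and -1.87). Signals near the floor limit S100a4, S100a5 and Anxa8. No paired analysis was possible because each condition has 1 array.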

Other observations

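A list of proteins that bind calcium and phospholipid through C2 domains, the other main membrane-binding calcium fold, lay near the median gene. Some C2 proteins, among them Myof and Plcd1, both lower above, were counted in other lists and are not in this one. Of 27 measured genes 6 (22.2%) were at least 2-fold lower with CHIR99021 and 1 higher, near the 18.4% and 1.9% of all measured genes. Their median log2 ratio was -0.48, or 0.10 after loess, so the genes named next are single members of a list near the background. Sytl2, a synaptotagmin-like protein of secretory vesicles, had 16.3 in CHIR+, just above the floor, and 153 in CHIR-, 9.35-fold lower. Syt7, a calcium sensor of lysosome exocytosis, had 21.8 in CHIR+ and 119.5 in CHIR-, 5.48-fold lower, with its other probe set at -1.40. Sytl4, or granuphilin, was 3.13-fold lower and Syt17 2.45-fold lower, with CHIR+ signals of 19.8 and 13.6, just above the floor. Prkcb, a calcium-dependent protein kinase C, had 44.4 in CHIR+ and 7.96 in CHIR-, below the floor, at least 2.32-fold higher.

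Among genes for calcium entry, pumps and stores, 7 of 23 measured (30.4%) were at least 2-fold lower and 1 higher, against 18.4% and 1.9% of all measured genes, with a median log2 ratio of -0.48, or -0.12 after loess. Atp2a3, a calcium pump of the endoplasmic reticulum, had 44.3 in CHIR+ and 329 in CHIR-, 7.44-fold lower, though its other probe set was at 0.45. Itpr2, an inositol trisphosphate receptor, had 33.4 in CHIR+ and 156 in CHIR-, 4.66-fold lower, with further probe sets at -2.23 and -1.26. Micu2, a regulator of the mitochondrial uniporter, was 3.50-fold lower, and Letm1, an inner mitochondrial membrane protein, 3.10-fold lower with other probe sets at -0.28 and 0.14. Slc8a1, a sodium-calcium exchanger, had 42.4 in CHIR+ and 10.2 in CHIR-, below the floor, at least 2.21-fold higher.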
